A study of Mus musculus with 24 samples.

Results

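The 8 genes described here encode proteins by which eosinophils are recognised: the granule proteins Prg2, Prg3 and Epx, the eosinophil-associated ribonucleases Ear1 and Ear2, and the surface receptors Siglecf, Il5ra and Ccr3. They were picked by symbol, and each matched 1 of the 45318 Ensembl gene rows of the count table. The choice was made with results of these libraries in view, comparisons with 0 h among them, so levels and folds against 0 h are given as a description without a test. RNA came from Lys-GFP-ER-HoxA9 cells, a C57Bl/6 mouse myeloid progenitor line with HoxA9, a homeobox factor, fused to an oestrogen receptor, and with GFP as a reporter of lysozyme. All cells were grown in stem cell factor and 0.5 uM beta-estradiol, under which the fusion stays active and holds such cells as progenitors, and taking estradiol out lets them differentiate. The withdrawal arm held 20 libraries, 2 at each of 0, 4, 8, 12, 24, 36, 48, 72, 96 and 120 h. The R07 arm held 4 libraries of the same line treated with R07, an agent known here only by that name, 1 for each of the hours 12, 36, 72 and 120. Whether R07 was given with or without estradiol is not clear from the labels. Nor do they tell if libraries of a time came from separate cultures, so p-values measure the spread between these libraries, which may be technical. In the R07 fits the error also holds changes of the difference between arms from hour to hour that the fit leaves out. The cells are 1 engineered line held in culture with stem cell factor as the only named cytokine, and no eosinophils were sorted.

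Eosinophils are granulocytes whose granules hold a crystalline core of major basic protein, surrounded by a matrix with a peroxidase and basic ribonucleases. Their precursors are set by the transcription factors GATA-1, PU.1 and the C/EBP family, make granule proteins before they become mature, and depend on interleukin 5, which is sensed by a specific alpha chain (Il5ra) joined to a beta chain (Csf2rb) that is shared with the receptors for interleukin 3 and GM-CSF. Mature cells leave the marrow and move into tissue along eotaxins, which are read by Ccr3, and carry Siglecf, an inhibitory sialic acid receptor that is also found on alveolar macrophages.

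Sequences are shown for the members where the sequence bears on how the counts can be read or on how the members differ. RefSeq (GRCm38.p6) gave the 300 bases around the start site, 250 before it and 50 after it, for 7 of the 8 members. Prg2 had no entry. Ear1 and Ear2 lie on opposite strands of chromosome 14, and their start regions are near copies: of 297 aligned bases, 294 (99%) were the same. The capitals below mark the 3 substituted bases and the 3 bases of each sequence that the alignment left unpaired. The Ear1 region is chr14:43819590-43819889, minus strand, inside the annotated Ear1 gene, and the Ear2 region is chr14:44102404-44102703, plus strand, ending inside Ear2.
Ear1: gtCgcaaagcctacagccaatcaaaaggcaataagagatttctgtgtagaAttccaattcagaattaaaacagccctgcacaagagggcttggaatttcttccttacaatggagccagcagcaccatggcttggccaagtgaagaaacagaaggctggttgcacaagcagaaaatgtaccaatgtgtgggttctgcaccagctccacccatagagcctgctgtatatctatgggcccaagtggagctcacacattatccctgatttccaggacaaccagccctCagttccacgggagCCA
Ear2: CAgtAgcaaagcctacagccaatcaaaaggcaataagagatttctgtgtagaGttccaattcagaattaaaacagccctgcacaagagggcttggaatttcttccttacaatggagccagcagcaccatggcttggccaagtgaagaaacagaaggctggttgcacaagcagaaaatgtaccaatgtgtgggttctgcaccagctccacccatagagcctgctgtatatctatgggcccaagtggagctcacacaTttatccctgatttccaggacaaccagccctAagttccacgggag

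The members were also searched on both strands for GATA motifs (AGATAA, then AGATAG, then TGATAA, then TGATAG), C/EBP motifs (TTNNGNAAT, then TTNNGNAAG, then TGNNGNAAT, then TGNNGNAAG) and the PU.1 motif (GAGGAA), of which the C/EBP spellings can hold the PU.1 motif in their free bases, although no PU.1 match in the members lay inside a C/EBP match. Of the 7 start regions, 4 held a GATA motif, 4 a C/EBP motif and 3 the PU.1 motif, and 3 held all 3 kinds (Siglecf, Il5ra and Ccr3). Among 32851 RefSeq start regions of the same length, 29.8% held GATA, 45.4% C/EBP, 28.3% PU.1 and 4.73% all 3. Epx, Ear1 and Ear2 held none of these letters. Prg3, the granule gene that reached its highest level first, held 1 GATA and 2 C/EBP motifs, and Il5ra held 1 of each kind, so these are printed with the motifs in capitals. The Prg3 region is chr2:84987965-84988264, plus strand, and the Il5ra region is chr6:106748988-106749287, minus strand. A match is a string of letters and no evidence of binding, and no binding was measured.
Prg3: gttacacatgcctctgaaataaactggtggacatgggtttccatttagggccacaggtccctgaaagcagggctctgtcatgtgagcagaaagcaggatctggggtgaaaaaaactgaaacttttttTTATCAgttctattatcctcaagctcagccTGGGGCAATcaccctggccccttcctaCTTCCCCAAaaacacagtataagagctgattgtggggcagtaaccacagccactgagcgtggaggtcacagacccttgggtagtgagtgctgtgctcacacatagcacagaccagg
Il5ra: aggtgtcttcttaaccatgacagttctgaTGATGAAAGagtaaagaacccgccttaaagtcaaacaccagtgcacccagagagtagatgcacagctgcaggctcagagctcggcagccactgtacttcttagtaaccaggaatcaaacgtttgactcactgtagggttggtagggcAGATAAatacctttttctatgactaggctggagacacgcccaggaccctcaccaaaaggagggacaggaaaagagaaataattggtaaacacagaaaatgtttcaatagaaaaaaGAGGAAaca

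Gene counts per library ran from 36.7 to 49.6 M (median 43.7 M). Levels are in CPM, counts scaled to a library size corrected by TMM, given for the libraries whose count columns end in A and B in that order, or as mean ± SD (n = 2). The variance between libraries of a time was 5.84 (at 8 h) to 45.8 (at 96 h) times that of counting error. Folds between times or arms are ratios of counts pooled over the libraries of a group and scaled by library size, and can differ slightly from a ratio of the printed means. These are bulk samples, in which more cells of a type and more RNA per cell cannot be told apart.

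Prg2 and Prg3 encode the major basic proteins, the cationic proteins of the granule core. They are neighbours on the plus strand of chromosome 2 (GRCm38), Prg2 at chr2:84980461-84983632 and Prg3 at chr2:84988215-84993886, 4582 bases apart, and 67.3% of the aligned bases of their transcripts were the same. No window of 101 bases, the read length, was shared between either transcript and another gene.

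Prg2 was at 3.72 and 4.84 CPM at 0 h and at 7.84 and 10.1 CPM at 12 h. It stood at 135 and 143 CPM at 24 h and at 808 and 698 CPM at 36 h. At 48 h it reached 1666 and 1311 CPM, a mean of 1489 ± 251, which placed it 39th among 18816 detected genes and was 342-fold the 0 h level. The 72 h libraries, at 1327 and 1475 CPM, lay within the range of the 48 h libraries, so no order between these times can be read. The level then was 198 and 215 CPM at 96 h and 43.6 and 39.7 CPM at 120 h, which was 2.80% of the highest mean and still 9.65-fold above 0 h. Apart from 48 and 72 h, and 4 and 0 h, the libraries of each time stood clear of those of the next lower level.

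The levels of Prg3 ran ahead of those of Prg2. It was at 4.22 and 5.86 CPM at 0 h, at 9.49 and 8.36 CPM at 8 h and already at 38.9 and 47.2 CPM at 12 h, 8.36-fold over 0 h where Prg2 stood at 2.06-fold. At 24 h it was at 425 and 434 CPM, 53.6% of its highest mean, when Prg2 was at 9.32% of its own. Its highest mean was at 36 h (888 and 715 CPM), overlapped by the libraries at 48 h (735 and 649 CPM). At 72 h, when Prg2 was at 94.1% of its highest mean, Prg3 was at 267 and 350 CPM, 38.4% of its own. It ended at 10.2 and 14.1 CPM at 120 h. Per kilobase of exon, the highest level of Prg2 (1776 CPM per kb) exceeded that of Prg3 (844 CPM per kb).

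Epx, the eosinophil peroxidase (chr11:87864000-87875536, minus strand, 14 exon blocks), followed Prg2 in time at a far lower level. No read was counted at 0 h, and 1 to 2 counts were summed over both libraries at each of 4, 8 and 12 h. It was at 0.920 and 0.643 CPM at 24 h and 5.03 and 5.09 CPM at 36 h. The 48 h libraries (16.6 and 11.2 CPM) and the 72 h libraries (14.6 and 14.0 CPM) overlapped, and the levels at 96 h (1.47 and 1.58 CPM) and 120 h (0.249 and 0.172 CPM) were lower than both. With 0 counts at 0 h, the 72 h level was at least 422-fold higher, on a floor of 3 counts over the group. Its highest level per kilobase, 5.22 CPM per kb, compares with 1776 CPM per kb for Prg2. The Epx transcript shares 72.5% of its aligned bases with that of Mpo, the myeloperoxidase of neutrophils and monocytes, but no window of a read's length.

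Ear1 and Ear2 encode ribonucleases of the eosinophil granule that are toxic to cells and active against RNA viruses. Their counts carry an uncertainty of their own: 23.5% of the read-length windows of the Ear1 transcript were found in Ear-ps9 or Ear10, and 13.7% of those of Ear2 in Ear-ps2 or Ear10, and 96.8% of the aligned bases of Ear1 and Ear2 were the same. Ear1 (chr14:43818765-43875517, minus strand) also overlaps pseudogenes and a long noncoding RNA of the opposite strand, and Ear2 (chr14:44102654-44103534, plus strand) a long noncoding RNA on the minus strand. How the authors' counting split such reads is not given in the sources used here.

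The pair differed in level and in timing. Ear1 had no counts in the 10 libraries from 0 to 24 h, and was at 0.0437 and 0.0634 CPM at 36 h and 0.571 and 0.626 CPM at 48 h. Its highest level was at 72 h, at 1.39 and 2.09 CPM. At 96 h it was back at 0.704 and 0.686 CPM, and the 120 h libraries held 0.304 and 0.138 CPM. Each of the times from 36 to 120 h was separated from the next in level.

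Ear2 had 3 counts in all at 0 h and 6 at 12 h, and was at 0.644 and 0.394 CPM at 24 h and 2.97 and 1.73 CPM at 36 h. It reached 9.27 and 8.38 CPM at 48 h and 52.0 and 44.4 CPM at 72 h. Its highest level came at 96 h, at 116 and 92.7 CPM (104 ± 16.7, SD, n = 2), when Prg2, Prg3 and Epx were at 13.9, 7.09 and 10.7% of their own highest means. At 120 h Ear2 was at 57.8 and 43.7 CPM, overlapping the 72 h libraries. Per kilobase, its highest level was 145 CPM per kb and that of Ear1 2.38 CPM per kb.

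Siglecf (chr7:43351341-43359531, plus strand) had the highest level per kilobase of the members at 0 h, at 25.3 and 23.6 CPM. Its course had a dip in it: the level was 54.2 and 59.4 CPM at 12 h, lower at 24 h with 35.9 and 36.6 CPM, and stood at 48.8 and 40.3 CPM at 36 h. The level was 86.3 and 68.8 CPM at 48 h and highest at 72 h, at 159 and 141 CPM, overlapped by 123 and 144 CPM at 96 h. The 72 h level was 6.15-fold the 0 h level. At 120 h it stood at 82.2 and 75.2 CPM, within the range of the 48 h libraries.

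Il5ra (chr6:106710357-106749037, minus strand), the alpha chain that gives the interleukin 5 receptor its specificity, was low throughout, with at most 259 counts in a library. It was at 0.708 and 0.980 CPM at 0 h and 0.752 and 0.685 CPM at 4 h. At 8 h it was at 2.86 and 2.31 CPM, above both earlier times. Its highest mean, 4.16 ± 0.648 CPM (SD, n = 2) at 48 h, came from libraries at 3.70 and 4.62 CPM, of which the lower was overlapped by 96 h (3.73 and 2.44 CPM). In order of mean level, 12, 36, 96, 72 and 8 h each overlapped the next. At 120 h it was at 2.27 and 1.45 CPM.

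Ccr3 (chr9:124021972-124031689, plus strand), the eotaxin receptor of mature eosinophils, was nearly absent, with 58 counts over all 24 libraries and at most 9 in one. Its highest mean was 0.231 CPM at 120 h (0.221 and 0.241 CPM), overlapped by 0.275 and 0.0894 CPM at 96 h. It did not pass the filter on low counts in any comparison. With no filter, edgeR's quasi-likelihood test put it higher at 120 h than at 48 h (adjusted p = 0.0245), on 15 against 3 counts, a 7.55-fold ratio with a 95% counting interval from 2.14 to 40.7. DESeq2 did not (adjusted p = 0.136). Of the 3 receptors, the levels per kilobase at their highest times were 53.8 CPM per kb for Siglecf, 1.16 for Il5ra and 0.0707 for Ccr3.

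**Figure D1:**
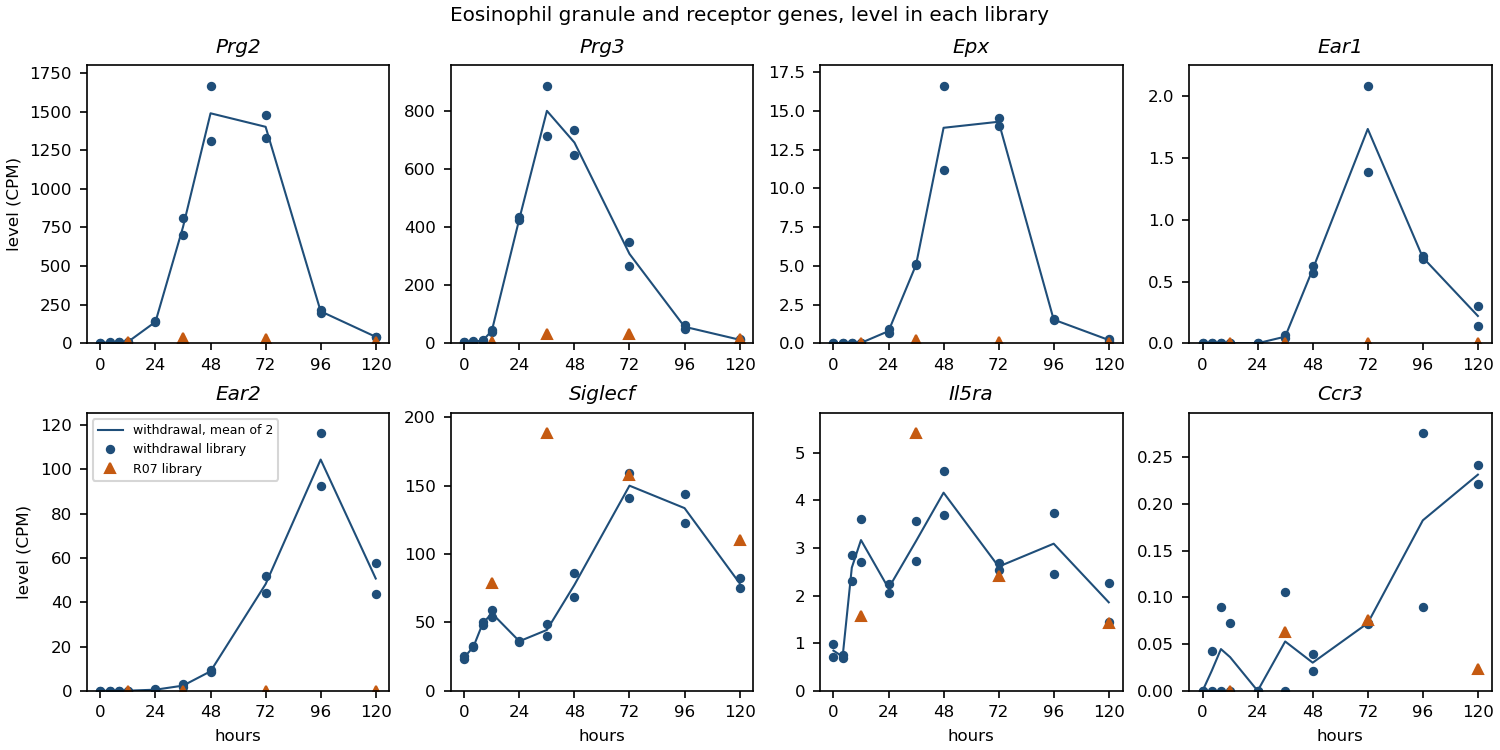
Level of each of the 8 genes in CPM (vertical axis, from 0, own scale per gene) against hours, with blue points for the 20 withdrawal libraries, a line through the mean of 2 and orange triangles for the 4 R07 libraries. Prg3, Prg2 and Epx are highest at 36 to 72 h, Ear2 at 96 h, and the R07 triangles lie near 0 for the granule genes and above the withdrawal points for Siglecf at 12, 36 and 120 h.

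The highest means thus came at 36 h for Prg3, 48 h for Prg2 and Il5ra, 72 h for Epx, Ear1 and Siglecf, 96 h for Ear2 and 120 h for Ccr3, where for Prg3, Prg2, Epx, Siglecf and Ccr3 the next time in level overlapped the highest.

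**Figure D2:**
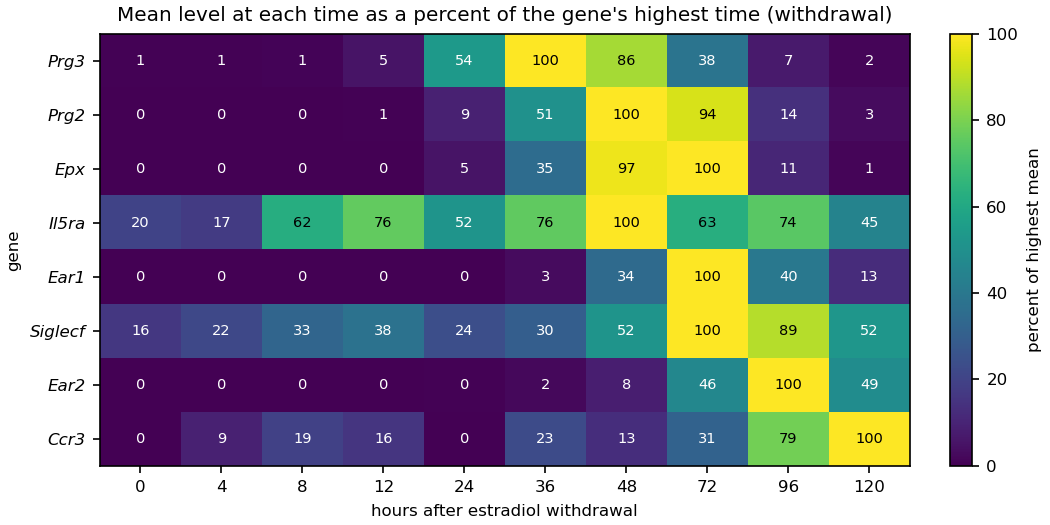
Mean level at each withdrawal time (columns, hours) as a percent of the highest mean of the same gene (rows), from 0 (dark) to 100 (yellow). The rows are, from the top, Prg3, Prg2, Epx, Il5ra, Ear1, Siglecf, Ear2 and Ccr3. The bright cells move from 36 h for Prg3 to 96 h for Ear2, while Il5ra and Siglecf are never below 17.3 and 16.3%.

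Changes between times were tested with edgeR's quasi-likelihood test in a fit of all 20 withdrawal libraries (14615 genes), with Benjamini-Hochberg adjustment over all genes and calls at an adjusted p under 0.05. Values are log2 changes ± SE. The members were chosen with results of these libraries in view, so here and below their calls are not independent of that choice. The shares of all genes beside them are given for scale only. From 4 to 12 h, 4 of the 7 tested members rose and none fell, where 9.53% of all genes tested were called higher and 10% lower. Prg3 rose by 2.84 ± 0.20 (adjusted p = 1.43e-09), Il5ra by 2.13 ± 0.27 (adjusted p = 7.77e-06), Prg2 by 0.81 ± 0.16 (adjusted p = 6.75e-04) and Siglecf by 0.80 ± 0.12 (adjusted p = 3.68e-05). Epx, Ear1 and Ear2 had at most 6 counts in a group and were not called. In the same step 5 of the 6 tested basophil and mast cell markers rose, and their part in the rise of the members was not tested. The largest of these changes were thus those of a granule core gene and of the interleukin 5 receptor chain.

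From 12 to 48 h, 6 of the 7 tested members, chosen with results of these libraries known, rose and none fell. Of all genes tested, 22.4% were called higher and 22.7% lower. Prg2 rose by 7.38 ± 0.17 (adjusted p = 4.86e-17), Prg3 by 4.01 ± 0.19 (adjusted p = 8.89e-13) and Ear2 by 6.95 ± 0.40 (adjusted p = 3.65e-11). The size of the Ear2 change rested on 1 and 5 counts in the 12 h A and B libraries: it was 6.17 without A and 8.48 without B. Epx went from 2 to 1357 counts over both libraries, a 602-fold ratio whose 95% counting interval, which is exact and covers counting error only, ran from 166 to 4975. Ear1 went from 0 to 59 counts and was at least 17.4-fold higher on a floor of 3 counts over the group. Both were called higher (adjusted p = 8.37e-13 for Epx and 1.22e-05 for Ear1). Siglecf rose by 0.46 ± 0.12 (adjusted p = 0.00291), a call that was lost without the 48 h A library (0.29, adjusted p = 0.0909). Il5ra, at 0.40 ± 0.22 (adjusted p = 0.156), was not called.

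From 48 to 120 h the members parted. Prg3, Prg2, Epx, Ear1 and Il5ra fell and Ear2 rose, against 36.7% of all genes called higher and 38% lower. The changes were -5.86 ± 0.21 for Prg3 (adjusted p = 2.1e-15), -6.01 ± 0.31 for Epx (adjusted p = 8.22e-13) and -5.17 ± 0.15 for Prg2 (adjusted p = 1.68e-16). Il5ra changed by -1.16 ± 0.24 (adjusted p = 2.46e-04). Ear1 changed by -1.39 ± 0.45 (adjusted p = 0.0112), a call that was lost with DESeq2 (adjusted p = 0.0983) and without the 120 h B library (adjusted p = 0.109). Ear2 rose by 2.51 ± 0.19 (adjusted p = 3.21e-10). The change of Siglecf was 0.01 ± 0.12 (adjusted p = 0.965), its levels at 48 and 120 h overlapping around the maximum at 72 h.

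**Figure D3:**
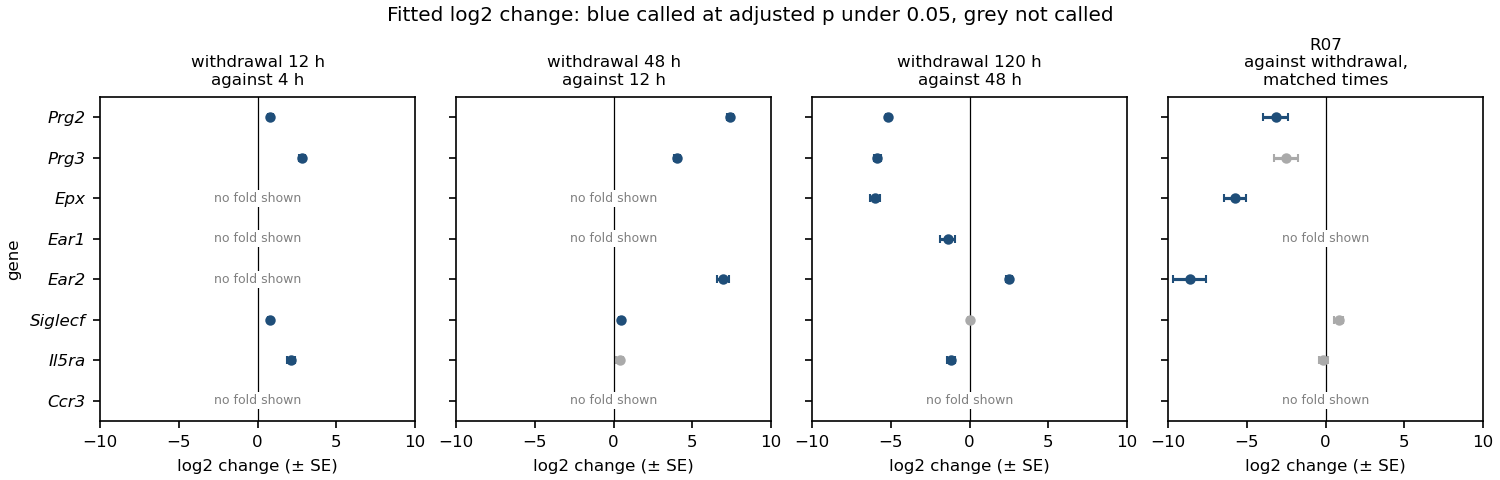
Fitted log2 change ± SE of each gene (rows) in 4 comparisons (panels), blue where called at an adjusted p under 0.05 and grey where not. "No fold shown" marks a gene that was not tested or, in the withdrawal panels only, a group with at most 3 counts. In the R07 panel Epx and Ear2 are drawn although no R07 library held more than 11 and 3 counts of them. Prg2, Prg3 and Epx lie far to the left at 120 against 48 h while Ear2 lies to the right, and Epx and Ear2 lie farthest left for R07.

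R07 libraries were set beside the withdrawal libraries of the same hours. Prg2 was at 5.92, 34.6, 27.2 and 4.99 CPM with R07 at 12, 36, 72 and 120 h, below both withdrawal libraries at each hour. The withdrawal level was 1.51-fold the R07 level at 12 h, 21.7-fold at 36 h, 51.5-fold at 72 h and 8.39-fold at 120 h. Prg3 was at 5.06, 31.8, 31.1 and 13.6 CPM, below both withdrawal libraries by 8.48-, 25.2- and 9.93-fold at 12, 36 and 72 h but between them at 120 h. Both core genes were thus higher in the R07 libraries of 36 and 72 h than in that of 12 h.

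Epx had 0, 11, 3 and 0 counts with R07 at the 4 hours, against 471 counts over both withdrawal libraries at 36 h and 1183 at 72 h. The withdrawal level was 22.0-fold the R07 level at 36 h (95% counting interval 12.2 to 44.5), and 252-fold at 72 h (86.2 to 1226). Ear2 had 1, 2, 3 and 2 counts with R07, and at 72 h, with 3988 withdrawal counts, the ratio was 851-fold (counting interval 291 to 4129). Ear1 had 0 counts in all 4 R07 libraries, with 144 over both withdrawal libraries at 72 h, which were at least 30.7-fold higher. Of the granule genes, then, the peroxidase and ribonucleases were at 11 counts or fewer with R07, and the core genes were at higher counts. In withdrawal, too, Epx, Ear1 and Ear2 were at lower levels than Prg2 and Prg3 at 36 and 72 h. As a ratio of withdrawal to R07 at 36 h, Epx (22.0-fold) was near Prg2 (21.7-fold) and Prg3 (25.2-fold). Ear2 stood at 56.1-fold there (counting interval 15.4 to 466). At 72 h the ratio was 252-fold for Epx, 51.5-fold for Prg2 and 9.93-fold for Prg3.

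The receptors differed among themselves. Siglecf was at 79.2, 188, 158 and 110.2 CPM with R07, above both withdrawal libraries at 12, 36 (4.23-fold) and 120 h and between them at 72 h. The R07 36 h value was above every one of the 20 withdrawal libraries. Il5ra was at 1.58, 5.40, 2.41 and 1.42 CPM, below both withdrawal libraries at 12, 72 and 120 h and above both at 36 h, the highest value of the gene in the 24 libraries. Ccr3 had 0, 3, 4 and 1 counts, and at 120 h, with 15 withdrawal counts, the withdrawal level was 9.73-fold that with R07 (counting interval 1.5 to 409.6).

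Since each R07 hour has 1 library, the test was of the mean difference over the 4 hours, with time as a factor (12 libraries, 13641 genes). Changes of the R07 difference between hours thus enter its SE. For Prg2 the log2 fold of R07 over withdrawal was -0.59 at 12 h and -5.69 at 72 h. The test called 3 of the 6 tested members lower and none higher, where 6.09% of all genes were called lower and 10.5% higher. R07 minus withdrawal was -8.62 ± 1.03 for Ear2 and -5.75 ± 0.68 for Epx (adjusted p = 0.00173 for both), and -3.15 ± 0.80 for Prg2 (adjusted p = 0.0287). The Epx and Ear2 calls held without any 1 of the 12 libraries. The Prg2 call was lost on leaving out any 1 of the 8 libraries made up of the withdrawal libraries of 36, 72 and 120 h and the R07 libraries of 36 and 72 h (adjusted p between 0.0522 and 0.0739). Prg3, at -2.51 ± 0.75, was not called (adjusted p = 0.0509), but was called (adjusted p = 0.0497) with the filter on low counts that had been used first, under which Ear1 was also tested and called lower. It was also called without the withdrawal 120 h A or B library (adjusted p = 0.0314 and 0.048) or the R07 120 h library (adjusted p = 4.15e-04). Siglecf, at 0.84 ± 0.28 (adjusted p = 0.068), and Il5ra, at -0.13 ± 0.29 (adjusted p = 0.782), were not called.

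The change of the R07 minus withdrawal difference with hours, fitted as a line per 24 h in the same libraries, was called for 2 of 6 tested members, where 26.5% of genes were called higher and 23.9% lower, so the share of members called was not above that of all genes. The Prg3 difference moved by 0.82 ± 0.22 per 24 h (adjusted p = 0.0127), which is the difference closing by 120 h. That slope was 0.00 (adjusted p = 0.997) without the R07 120 h library, and was not called without either withdrawal library of 120 h (adjusted p = 0.0604 and 0.0536). The Epx difference moved by -2.10 ± 0.35 per 24 h (adjusted p = 0.0013), on R07 counts of 0, 11, 3 and 0, and was not called without the R07 library of 36 h (adjusted p = 0.911) or 72 h (adjusted p = 0.505). The slopes of Prg2 (-0.43 ± 0.34), Ear2 (-1.63 ± 0.66), Siglecf (-0.17 ± 0.16) and Il5ra (-0.01 ± 0.17) were not called. For the first 3 this too turned on single R07 libraries. The Prg2 slope was -1.93 and called without the R07 120 h library (adjusted p = 0.00264), and 0.41 without that of 12 h (adjusted p = 0.106). That of Ear2 was called without the R07 library of 72 h (-1.46, adjusted p = 0.0285) or 120 h (-2.96, adjusted p = 0.0458) and with DESeq2 (-1.63, adjusted p = 0.00448). That of Siglecf was called without the R07 12 h library (-0.43, adjusted p = 0.0304).

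Other eosinophil-associated ribonucleases were measured from a list of 13, of which 8 matched a row. Ear6 was the one with a course like that of the granule genes, at 0 CPM at 12 h, 6.36 ± 1.27 CPM at 48 h, 8.66 ± 0.336 CPM at 72 h and 0.231 CPM at 120 h (SD, n = 2), and it was called lower with R07 (adjusted p = 0.00497), where 2 counts in the 36 h library were the only ones, too few for a fold. Ear10, which shares read-length windows with Ear1 and Ear2, was at most 0.0749 CPM in a withdrawal mean, Ear14 and Rnase2b were at 0 throughout and Rnase2a was at most 0.017 CPM, 4 genes named after their values were seen. Rnase6, a ribonuclease of monocytes and macrophages, rose from 48 to 120 h by 8.18 ± 0.30 (adjusted p = 2.38e-13), to 39.7 CPM. Of the 4 tested members of this list, 2 rose from 12 to 48 h, where 22.4% of all genes were called higher. From 48 to 120 h 3 rose and Ear6 fell, where 36.7% of all genes were called higher and 38% lower.

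Csf2rb, the shared beta chain that partners Il5ra, was at 98.4 ± 13.9 CPM at 4 h, 312 ± 5.38 at 12 h and 778 ± 19.0 at 120 h (SD, n = 2), and rose in all 3 withdrawal comparisons. Other chains of that receptor family do not pair with Il5ra. Csf2rb2, the beta chain that in mice serves interleukin 3 alone, rose from 4.22 ± 1.44 CPM at 4 h to 29.5 ± 1.87 at 12 h and 365 ± 3.4 at 120 h. Csf2ra, the GM-CSF alpha chain, went from 19.0 ± 2.29 CPM at 4 h to 359 ± 6.02 at 120 h. Il5ra, in contrast with these 3, was lower at 120 h than at 48 h. Il3ra, the interleukin 3 alpha chain, was at 6.23 ± 1.62 CPM at 12 h and 3.21 ± 0.0619 at 48 h, a change of -0.94 ± 0.19 (adjusted p = 4.81e-04). With R07, Csf2ra was lower (-1.39 ± 0.37, adjusted p = 0.0329) and Il3ra higher (1.20 ± 0.32, adjusted p = 0.0334), while Csf2rb (-1.22 ± 0.37, adjusted p = 0.052) and Csf2rb2 (-2.20 ± 0.93, adjusted p = 0.135) were not called. Over the 21 genes of interleukin 5 receptor and beta chain signalling, 6 rose and 5 fell from 4 to 12 h, 6 rose and 8 fell from 12 to 48 h, and 14 rose and 2 fell from 48 to 120 h, against 9.53 and 10%, 22.4 and 22.7%, and 36.7 and 38% of all genes called higher and lower in these comparisons. Among them, Socs1, a feedback inhibitor of cytokine signalling, rose by 3.61 ± 0.43 from 48 to 120 h (adjusted p = 1.7e-07), and Sox4, a transcription factor reported to act below the interleukin 5 alpha chain, was higher with R07 (5.44 ± 1.09, adjusted p = 0.0116). In withdrawal Sox4 was among the 2 largest called falls of this list in all 3 comparisons, so its R07 difference was taken against falling levels.

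Of the factors known to set eosinophil fate, Gata1 was low throughout. It was at 0.311 ± 0.137 CPM at 4 h, 2.98 ± 0.341 at 12 h, 3.84 ± 0.0938 at 24 h and 0.470 ± 0.0792 at 120 h (SD, n = 2). It rose from 4 to 12 h by 3.24 ± 0.28 (adjusted p = 4.56e-08) and changed by -2.52 ± 0.29 from 48 to 120 h (adjusted p = 9.37e-08). Cebpe, the factor of granule gene expression in neutrophils and eosinophils, was at 7.94 ± 0.915 CPM at 4 h, 44.2 ± 10.2 at 12 h, 164 ± 6.48 at 36 h and 195 ± 17.4 at 96 h. With R07 it was at 6.48, 27.2, 24.4 and 12.5 CPM, and it was called lower (-2.81 ± 0.15, adjusted p = 8.89e-05). Gata2 was at 164 ± 3.99 CPM at 8 h and at 49.4 ± 0.765 at 48 h and 9.89 ± 1.86 at 120 h, and with R07 it was at 57.3, 89.4, 95.1 and 99.9 CPM (mean difference 1.33 ± 0.58, adjusted p = 0.144).

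Xbp1, a secretory stress factor that eosinophils need to survive granule synthesis, was at 102 ± 2.68 CPM at 12 h, 196 ± 8.55 at 48 h and 276 ± 18.5 at 96 h, and was lower with R07 (-1.16 ± 0.09, adjusted p = 4.78e-04). Spi1, which encodes PU.1, rose in all 3 withdrawal comparisons, to 541 ± 55.6 CPM at 120 h, and was lower with R07 (-1.16 ± 0.31, adjusted p = 0.0346). Id2, an inhibitor of helix-loop-helix factors that promotes granulocyte maturation, was at 12.7 ± 1.19 CPM at 48 h and 369 ± 106 at 96 h. Irf8, which favours monocytes over granulocytes and is also needed for eosinophil precursors, had its lowest mean at 36 h (17.6 ± 1.24 CPM), overlapping the 0 and 24 h libraries, and stood at 118 ± 1.38 CPM at 120 h. Cebpa was at 290 ± 7.18 CPM at 8 h and 39.2 ± 5.34 at 120 h, and Id1 was lower with R07 (-1.33 ± 0.24, adjusted p = 0.00819). Over the 22 factors, 9 rose and 5 fell from 4 to 12 h, 9 rose and 8 fell from 12 to 48 h, and 11 rose and 10 fell from 48 to 120 h, beside the same shares of all genes as given for the signalling genes. With R07, 2 factors were higher and 7 lower, against 10.5% of all genes called higher and 6.09% lower.

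**Figure D4:**
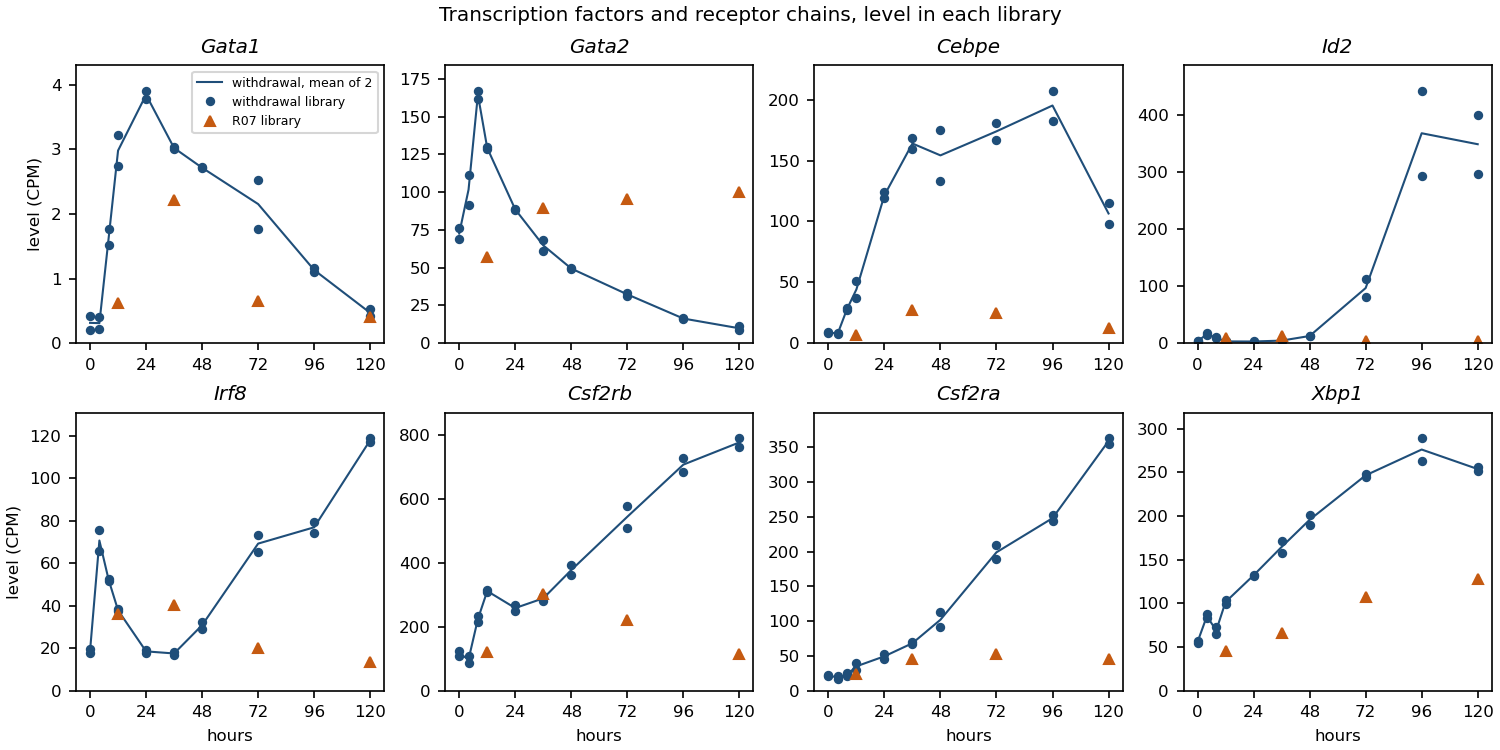
Level in CPM (vertical axis, from 0, own scale per gene) of 5 transcription factors (Gata1, Gata2, Cebpe, Irf8, Xbp1), the inhibitor Id2 and the receptor chains Csf2rb and Csf2ra against hours, drawn as in the plot of the member levels. Gata1 is highest at 24 h, the withdrawal means of Cebpe stay at 106.5 CPM or above from 24 h on, and the R07 triangles of Cebpe lie at 27.2 CPM or lower.

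Of 36 other receptors and mediators of eosinophils, 31 were tested in the withdrawal fit: 20 rose and 2 fell from 4 to 12 h, 17 rose and 6 fell from 12 to 48 h, and 27 rose and 1 fell from 48 to 120 h. Over all genes, 9.53, 22.4 and 36.7% were called higher and 10, 22.7 and 38% lower. Many are shared with neutrophils and macrophages. Ccr1, a chemokine receptor of granulocytes and monocytes, rose by 3.45 ± 0.21 from 4 to 12 h (adjusted p = 2.17e-10), and the paired immunoglobulin-like receptor gene Pirb rose by 7.19 ± 0.23 from 48 to 120 h (adjusted p = 5.15e-16). Alox15, a lipoxygenase of eosinophils and macrophages, was at 7.21 CPM at 72 h and 1.58 CPM at 120 h in withdrawal and at 14.4 and 13.2 CPM with R07 at the same hours. Ptgdr2, the prostaglandin receptor of eosinophils and basophils, was at most 0.091 CPM in a withdrawal mean and 0 with R07, and Hrh4, the histamine receptor of eosinophils, at most 0.089 CPM in a withdrawal mean and 0.167 CPM with R07. These 2 and Ltc4s, the leukotriene C4 synthase, at most 2.09 CPM in a withdrawal mean, were named after their values were seen, the first 2 for being near 0.

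Markers of other cell types moved in the same libraries. The summed level of 9 progenitor markers was 15302 to 16209 CPM at 36 h, 687 to 704 CPM at 120 h and 10469 to 16819 CPM with R07. That of 5 B cell markers was 169 to 179 CPM at 0 h, 29.9 to 30.7 CPM at 36 h and 181 to 224 CPM with R07. That of 9 erythroid and megakaryocyte markers was 36.0 to 40.6 CPM at 36 h and 12.3 to 111 CPM with R07. The 6 T and NK cell markers summed to at most 19.8 CPM. The summed level of 12 neutrophil markers was 27.3 to 29.2 CPM at 0 h, 190 to 284 CPM at 48 h, 3674 to 5380 CPM at 72 h and 29235 to 37089 CPM at 96 h, and 41.7 to 199.6 CPM with R07. From 12 to 48 h 10 of these 12 markers were called higher, as were the granule genes and 22.4% of all genes tested. The neutrophil sum was highest at 96 h, the time of the highest Ear2 level. The sum of 11 basophil and mast cell markers was 192 to 214 CPM at 4 h, 666 to 674 CPM at 12 h, 904 to 912 CPM at 24 h and 62.9 to 67.2 CPM at 96 h, and with R07 it was 366 CPM at 12 h and 946 to 1222 CPM later. Most of the 24 h sum came from Cpa3, the mast cell carboxypeptidase (685 CPM), and Hdc, which makes histamine (143 CPM), while Fcer1a, Mcpt4 and Tpsab1 were at 0 in both libraries. From 4 to 12 h Cpa3 rose by 1.87 ± 0.15 (adjusted p = 8.8e-09) and Hdc by 3.36 ± 0.15 (adjusted p = 3.97e-12). Of 10 monocyte and macrophage markers the sum was 1451 to 1524 CPM at 0 h and lower, at 670 to 713 CPM, at 36 h. It was 995 to 998 CPM at 48 h and 7666 to 8174 CPM at 120 h. With R07 it was 2405 CPM at 36 h, in the library with the highest Siglecf level, mostly from Ccr2 (1312 CPM) and F13a1 (947 CPM), and 1395, 2569 and 2072 CPM at 12, 72 and 120 h. Of the 6 alveolar macrophage markers, which bear on Siglecf, Car4, Marco and Pparg were at 0 in both libraries at 72, 96 and 120 h and in the R07 libraries. Fabp4 was at 0 at 72 h and with R07 but had counts at 96 and 120 h, and Itgax had counts at every time. Chil3, which maturing neutrophils also express, was at 9969 ± 1149 CPM at 72 h (SD, n = 2) and held nearly the whole sum of the list there. From 48 to 120 h all 3 tested markers of this list rose, where 36.7% of all genes were called higher. What part any of these cell types had in the levels of the members was not tested.

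The members were also compared with all other genes by the Pearson correlation of log2 CPM over the 20 withdrawal libraries, among 9650 candidates whose mean log2 CPM was 1 or more. These values are descriptions across libraries that share their time course, and carry no p. The genes named depend on the measure: of the 24 pairs of member and gene, 2 remained with Spearman ranks (Prg3 with Plac8, Ear1 with Wls), where Prg2 was most like Mreg, Alas1 and Rnd1. Prg2 was most like Agps (0.987), an enzyme of ether lipid synthesis, Tmed3 (0.985), a cargo receptor of the early secretory pathway, and Nucb2 (0.982). Agps and Tmed3 were also the closest to Epx (0.985 and 0.984), followed by Elane (0.975), the neutrophil elastase of primary granules, which was at 82.0 CPM at 48 h and 3.81 CPM at 120 h. Prg3 was most like Plac8 (0.990), then Nol4 and Svip. Ear2 was most like Sp140 (0.996), Crispld2 (0.993) and Anxa1 (0.993), the annexin of neutrophil and macrophage cytoplasm, which was at 4873 CPM at 96 h. Ear1 was most like Wls (0.954), Kiz and Gzf1, and Siglecf most like Ighm (0.962), Dnajc28 and Pxmp4. Il5ra had the loosest match, with Itgb3 (0.872), the integrin beta 3 chain, Mapkapk3 and Tbc1d2. Between members the coefficient was 0.991 for Prg2 and Epx, 0.898 for Prg2 and Prg3, 0.894 for Ear1 and Ear2 and 0.447 for Prg3 and Ear2.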

How the data were processed

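RNA was selected with oligo-dT and made into stranded libraries, per the labels' protocols. The deposited table holds raw counts per gene for each of the 24 libraries; per the submitters' processing notes, STAR 2.4.2a, Picard and the mm10 build were used. The counting program, strand setting and annotation release are not given in the sources used here. The 4 lines that name no gene (multimapping reads were 6.23 to 8.72% of reads) entered neither library sizes nor tests. Symbols, positions and exon lengths came from GENCODE on GRCm38. Withdrawal columns carry a letter, A or B, that the sample titles do not give, so columns were matched to times only.

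Counts were scaled by TMM and tested with edgeR 4.0.16 quasi-likelihood tests (limma 3.58.1, R 4.3.3), with Benjamini-Hochberg adjustment over all genes and calls at an adjusted p under 0.05. The SE is the log2 change divided by the square root of F. Genes at low counts were dropped with filterByExpr. For the R07 fits a first fit used the filter by design matrix (14511 genes); after its results had been seen, the filter by arm (13641 genes) was adopted, since it matches how these data had been processed before, and the first is kept as an alternative. It changed the call of Prg3 and whether Ear1 was tested. The tests were checked on simulated counts. Genes named from lists were the 2 largest called rises and falls per list and comparison, a fixed set of factors and receptor chains, and the 3 genes most like each member. Which of the list genes this gave are printed was chosen after their values were seen. The members and lists were chosen with earlier results of these data known. Bounds rest on a floor of 3 counts over a group. Alternatives were RLE size factors, no filter, DESeq2 1.42.0, other libraries in the fit, a replicate block, other correlations and leaving out each library.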

Additional observations from a re-analysis of the deposited data

Results flagged for a closer look

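Prg3 and Epx are listed here because the difference between the R07 and withdrawal arms changed with hours, by the test of that change in edgeR's quasi-likelihood fit with Benjamini-Hochberg adjustment. These were 2 of 6 tested members, where 26.5% of all genes were called higher and 23.9% lower, so such a call does not set a member apart. For Prg3 the log2 difference moved by 0.82 ± 0.22 per 24 h (adjusted p = 0.0127): R07 was below both withdrawal libraries at 12, 36 and 72 h and between them at 120 h, and without the R07 120 h library the slope was 0.00 (adjusted p = 0.997). For Epx it moved by -2.10 ± 0.35 per 24 h (adjusted p = 0.0013), with 0, 11, 3 and 0 counts in the R07 libraries, and the call was lost without the R07 library of 36 h or of 72 h (adjusted p = 0.911 and 0.505).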

How the results depend on the processing

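The 3 withdrawal comparisons called 4, 6 and 6 members (12 against 4 h, 48 against 12 h and 120 against 48 h). Leaving out 1 library gave 4, 5 to 6 and 5 to 6. With no filter on low counts the 120 against 48 h count was 7, through Ccr3 (higher, adjusted p = 0.0245), which the filter had kept out. No member changed direction where it was called. Of the values of the 7 tested members recomputed under all alternatives, 67 of 67, 69 of 70 and 68 of 70 kept their direction and call, counting as kept the 2, 0 and 4 values that changed sign while called in neither fit. No replicate block changed a member's call: with the column letter as a replicate block the counts were 4, 6 and 6 members and 2943, 6697 and 10934 genes, against 2854, 6602 and 10928 without it. Whether the letters pair the samples was not settled: correlations of A minus B between times ran from -0.457 to 0.525 (median 0.0704), with 16 of 45 over 0.1. For R07 no block was possible, since each hour has 1 library.

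The R07 results depended more on the processing. R07 against withdrawal called 3 members and 2262 genes. It called 6 members and 4030 genes with DESeq2, 6 members and 5211 genes with all 24 libraries in the fit, and 5 members with the design-matrix filter used first, which was replaced after its results had been seen. Leaving out 1 library gave 2 to 4 members and 969 to 3790 genes; the lowest count was without the R07 72 h library and the highest without that of 12 h. Prg3 was called with DESeq2 (adjusted p = 1.54e-04), RLE size factors (adjusted p = 0.0463) and all 24 libraries (adjusted p = 0.00389), and Siglecf with DESeq2 (adjusted p = 0.0347) and all 24 libraries (adjusted p = 0.00691). The R07 calls of genes other than members also depended on the setting: of 404 recomputed values of such named genes, 48 lost their call and 19 gained one. For the change with hours, 2 members and 6876 genes became 1 to 3 members and 3882 to 8339 genes when 1 library was left out, the lowest gene count without the R07 120 h library. The cause was not tested. Of the 24 pairs of a member and a gene most like it, 20 were shared with a prior count of 0.5 and 2 with Spearman ranks. Depth limits Ear1, Ccr3 and the R07 levels of Epx and Ear2, which rest on few counts.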
